A study of Mus musculus with 20 samples.

Results

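The genes of fatty acid uptake and acyl-CoA activation, ACSL1, ACSL3, ACSL4, ACSL5, SLC27A2, SLC27A4, CD36, FABP1 and DBI, were followed in human and mouse liver cells after knockdown of HuR, an RNA-binding protein encoded by ELAVL1. These 9 genes were chosen by name, and the group was selected on ACSL1, which moved in opposite directions in the 2 species in the same contrast that is described here. ACSL1 is therefore described without any test. All 9 were found by symbol among the 60607 human genes listed for the humanized mouse livers and again among the 55335 mouse genes listed for the WT mouse livers, and all 9 in each set passed the filter on low values, a mean of at least 1 TPM (transcripts per 1000000).

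Before a liver cell can burn or store a fatty acid, it has to bring the molecule in, join it to coenzyme A and keep the product soluble. CD36 is a membrane protein that binds long-chain fatty acids at the cell surface. The fatty acid transport proteins SLC27A2 and SLC27A4 help with uptake and also carry acyl-CoA synthetase activity. The long-chain acyl-CoA synthetases ACSL1, ACSL3, ACSL4 and ACSL5 make the fatty acyl-CoA, and ACSL1 is known as the main form in hepatocytes. FABP1 is the fatty acid binding protein of the liver cytosol, and DBI, also called acyl-CoA binding protein, carries the activated product. HuR binds AU- and U-rich stretches of mRNA and is known to affect how long its target mRNAs last.

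The livers of 20 mice were sequenced. Humanized mice were TK-NOG mice, immunodeficient animals with a thymidine kinase transgene under the mouse albumin promoter. At 8 to 9 weeks of age, 25 mg/kg of ganciclovir destroyed their transgenic liver cells, and 1000000 cryopreserved primary human hepatocytes were injected into the spleen a week later. Animals with more than 0.5 mg/ml of human albumin in serum 8 to 12 weeks after the transplant were used. Of these, 4 received adenovirus carrying an shRNA against human HuR and 4 received a control (LacZ) virus. WT mice were male C57BL/6 mice bought at 8 weeks of age, of which 6 received adenovirus with an shRNA against mouse HuR and 6 the LacZ virus. Every mouse, controls included, thus carried an adenovirus, at 2000000000 pfu given intravenously, and livers were taken on day 7 after a 4 h fast. The human cells came from few donors, and which donor repopulated which mouse is not given in the labels. Humanized livers keep mouse cells of the host, but the table for them lists human genes only. Host, shRNA and read length (75 bases in humanized and 50 bases in WT mouse livers) differed between the 2 sets and cannot be told apart from the species. In bulk tissue, fewer cells of a type and less RNA per cell cannot be told apart.

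Depth was recovered from the steps in which TPM values move. It ranged from 2671052 to 20307013 reads on genes in the humanized and from 1423964 to 44668491 in the WT mouse livers. HuR knockdown replicate 4 and LacZ replicate 2 of the humanized mice stood apart from the other 6, with 20307013 and 19896390 reads against at most 8344066, and with 49.1% of the TPM of each on mitochondrial ribosomal RNA against 27.2 to 36.0%. Among WT mice, LacZ replicate 2 was the shallowest library and HuR knockdown replicate 6, at 12960378 reads, the next. Over all genes, 458 human genes were called higher and 1003 lower at an unadjusted p under 0.05. Scaling the libraries by median-of-ratios factors turned this split to 791 and 876.

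HuR mRNA was lower in every knockdown liver than in every control of its set. Human ELAVL1, which encodes HuR, was at 3.46 ± 0.763 TPM (SD, n = 4) against 5.67 ± 0.623 TPM. This was 61.0% of control and gave the smallest p that 4 against 4 livers allow, 0.0286 in a two-sided exact permutation test. Mouse Elavl1 was at 4.91 ± 0.694 TPM (SD, n = 6) against 9.5 ± 0.789 TPM. This was 51.7% of control, with p = 0.00216 in the exact permutation test, again the smallest possible with 6 livers in each group. With limma, the adjusted p was 0.214 for human and 0.00105 for mouse HuR mRNA.

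The mouse 3′ untranslated regions (3′ UTRs) of these genes were read for AU-rich letters, since HuR is known to bind such stretches. The 5-base motif ATTTA and the 7-base motif TATTTAT were searched on the RNA strand, in the GENCODE M21 annotation of GRCm38. The second motif contains the first, so each TATTTAT also counts as an ATTTA. The windows of 29 bases are shown for Acsl1, the gene that defines the group, for Slc27a2, whose human counterpart was called higher, and for Cd36 and Acsl4, the genes here with a TATTTAT. They are printed as DNA, 5′ to 3′ along the mRNA, with the motif in capitals.
Acsl1, chr8:46534741-46534769, plus strand: aagtgctaagttATTTAagacttcttcaa
Acsl1, chr8:46535581-46535609, plus strand: tacaactacctgATTTAtgtgaaatgcat
Slc27a2, chr2:126588120-126588148, plus strand: gcaagtaaaaagATTTAgagacaattatt
Cd36, chr5:17783166-17783194, minus strand: ttgcagatataTATTTATttgtaaatata
Cd36, chr5:17782314-17782342, minus strand: tcacagtatgtTATTTATtgtattttatt
Acsl4, chrX:142319149-142319177, minus strand: gtgctctaaaaTATTTATaaagaaattat

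Acsl1 (ENSMUSG00000018796.13, chr8:46471037-46536051) had 2 ATTTA in 1571 bases of 3′ UTR. Of mouse 3′ UTRs within 10% of that length, 84.7% had at least 1 and 62.9% at least 2. Cd36 had 6 in 1660 bases, Acsl4 had 10 in 2684 bases and Acsl3 had 5 in 1328 bases. At least as many were held by 14.6%, 9.51% and 15.3% of 3′ UTRs of like length. The comparison was by length only, and A and T made up 65.2%, 66.4% and 61.7% of these 3′ UTRs. Slc27a2 had 1 in 307 bases, a length at which 39.4% of 3′ UTRs had at least 1. A TATTTAT was present 2 times in Cd36 and 1 time in Acsl4, against 35.2% and 46.3% of 3′ UTRs of like length that hold any. The letters ATTTA were not in the annotated 3′ UTRs of Acsl5, Slc27a4, Fabp1 and Dbi. These matches describe sequence only, and human 3′ UTRs were not used here.

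In control livers the order of the mRNA levels was led by FABP1 in both sets, and the places below it differed. Human FABP1 was at 405 ± 171 TPM (SD, n = 4), ACSL1 at 316 ± 29.5, SLC27A2 at 205 ± 43.9 and DBI at 118 ± 13.4 TPM. ACSL4 (61.3 ± 8.95 TPM), ACSL5 (60.1 ± 10.9), CD36 (37.5 ± 15.5), ACSL3 (17.3 ± 4.17) and SLC27A4 (14.5 ± 2.96) followed, and each of these overlapped the next in the ranges over livers, as FABP1 did with ACSL1. Mouse Fabp1 stood at 10066 ± 1982 TPM (SD, n = 6), at rank 10 of that table. Slc27a2 at 1811 ± 99.3, Acsl1 at 561 ± 89.6 and Dbi at 469 ± 65.9 TPM came next. Acsl5 (175 ± 13.7 TPM), Cd36 (155 ± 52.0), Acsl4 (44.1 ± 9.09), Slc27a4 (28.7 ± 2.45) and Acsl3 (11.4 ± 2.78) completed the mouse order, in which the ranges of Acsl1 and Dbi and of Acsl5 and Cd36 overlapped. The 2 tables were normalised apart, and levels were not compared between them. Mitochondrial ribosomal RNA held 27.2 to 49.1% of the TPM in humanized libraries and 0% in every WT library. Why the WT values are 0 was not tested.

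With HuR knockdown, human ACSL5 and SLC27A2 were higher, DBI was lower, and the tests of the other 5 human genes besides ACSL1 did not pass the threshold. An unadjusted p under 0.05 in limma was the threshold for a call. The study used the same cutoff for these livers, but with DESeq2 on read counts. Fold changes are on the log2(TPM + 1) scale, which understates the change of low genes. Of the 8 human genes tested, 2 were thus called higher and 1 lower, where 3.60% of all 12738 human genes tested were called higher and 7.87% lower. After adjustment over all genes, 0 of the 8 passed, and 0.212% of all genes did. None of the 8 mouse genes was called at the unadjusted threshold (0 of 8, against 16.0% of 15090 mouse genes either way, 9.09% higher and 6.94% lower) or after adjustment (0 of 8, against 0.888%), while voom on the recovered reads called 1, Acsl3. In 4 of the 9 human genes the knockdown and control livers did not overlap, against 7.16% of all human genes tested. In WT mouse livers this held for 0 of the 9, against 2.49% of all mouse genes. The median log2 fold change of the 9 genes was 0.10 in humanized and 0.02 in WT mouse livers, where all genes tested had −0.05 and 0.03. Since the group was selected on a result of the same contrast, nothing is read from these counts.

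**Figure D1:**
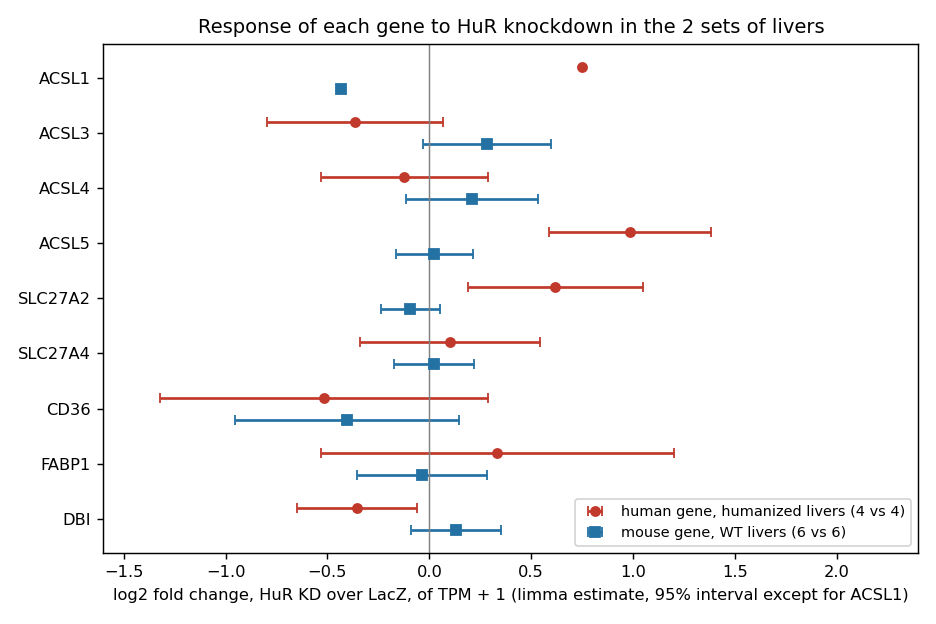
Log2 fold change of TPM + 1, HuR knockdown over LacZ, on the x axis for each of the 9 genes on the y axis, with circles for human genes in humanized livers (4 against 4) and squares for mouse genes in WT mouse livers (6 against 6); whiskers are 95% intervals from limma, left out for ACSL1, which chose the group. The human intervals of ACSL5 and SLC27A2 lie above 0 and that of DBI below 0, and the intervals of the 8 mouse genes that have one include 0.

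ACSL1 (ENSG00000151726.14), the synthetase that defines the group, was at 548, 532, 592 and 456 TPM in the 4 humanized livers with HuR knockdown and at 342, 284, 298 and 340 TPM in their controls. The groups did not overlap, and the lowest knockdown liver was replicate 4. The means were 532 ± 56.9 and 316 ± 29.5 TPM (SD, n = 4 each), or 168% of control, which is a change of 0.75 on the log2 scale. Mouse Acsl1 ranged from 345 to 470 TPM (median 416) with HuR knockdown and from 440 to 643 TPM (median 578) in controls. Here 4 of the 6 knockdown livers lay below every control and the other 2 lay within the control range. The means were 413 ± 43.6 and 561 ± 89.6 TPM (SD, n = 6 each), or 73.6% of control, which is a change of −0.43 on the log2 scale. The human minus the mouse log2 fold change was 1.18. Because the gene was picked for these directions, they are a description with no test.

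ACSL5 (ENSG00000197142.10), a synthetase of the outer mitochondrial membrane and endoplasmic reticulum, showed the largest fold change among the 9 human genes. It was at 112, 102, 148 and 116 TPM with HuR knockdown and at 46.6, 67.8, 70.1 and 56.2 TPM in controls. Every knockdown liver lay above every control. The means were 120 ± 19.9 and 60.1 ± 10.9 TPM, or 199% of control, which is a change of 0.98 on the log2 scale (standard error 0.18, 95% interval 0.59 to 1.38, adjusted p = 0.0686 from limma). The adjusted p ranged from 0.0271 to 0.178 over the other ways of processing all 8 livers. It was under 0.05 when the libraries were scaled by median-of-ratios factors (0.0382), by quantiles (0.0404) or to protein-coding TPM (0.0271). A filter at 5 TPM (0.0434) and voom on recovered reads (0.0276) also gave values under 0.05. It was above 0.05 with a pseudocount of 0.1 (0.0661), no filter (0.174), no trend (0.128) or the replicate number as a block (0.178). Mouse Acsl5 ranged from 140 to 203 TPM (median 182) with knockdown and from 163 to 195 TPM (median 169) in controls. The mouse groups overlapped almost entirely, with a log2 fold change of 0.02 (95% interval −0.17 to 0.22, adjusted p = 0.924 from limma).

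SLC27A2 (ENSG00000140284.11), the very long-chain acyl-CoA synthetase and fatty acid transporter of liver and kidney, was at 270, 272, 334 and 378 TPM with knockdown in humanized livers. Its controls were at 159, 246, 240 and 177 TPM, so that the groups did not overlap. The means were 314 ± 52.6 and 205 ± 43.9 TPM, or 153% of control, which is a change of 0.62 on the log2 scale (standard error 0.19, 95% interval 0.19 to 1.05, adjusted p = 0.252 from limma). Unlike most of the 9 genes, its highest values in both groups were those of the 2 livers that stood apart. Without that pair the log2 fold change was 0.62 (adjusted p = 0.173 from limma). Mouse Slc27a2 ranged from 1563 to 1872 TPM (median 1691) with knockdown and from 1697 to 1916 TPM (median 1808) in controls. The log2 fold change was −0.09 (95% interval −0.24 to 0.05, adjusted p = 0.549 from limma), and 3 of 6 knockdown livers lay below every control.

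DBI (ENSG00000155368.16) was the human gene called lower. It was at 88.9, 85.5, 102 and 91.3 TPM with knockdown and at 127, 109, 105 and 132 TPM in controls. The groups did not overlap, with a gap of a few TPM between the highest knockdown liver and the lowest control. The means were 92.0 ± 7.29 and 118 ± 13.4 TPM, or 77.8% of control, which is a change of −0.35 on the log2 scale (standard error 0.13, 95% interval −0.65 to −0.06, adjusted p = 0.343 from limma). The unadjusted p missed the threshold without HuR knockdown replicate 1 (0.0566), HuR knockdown replicate 2 (0.0584), LacZ replicate 1 (0.0656) or LacZ replicate 4 (0.0672). Mouse Dbi ranged from 415 to 559 TPM (median 517) with knockdown and from 374 to 550 TPM (median 469) in controls, a log2 fold change of 0.13 (95% interval −0.09 to 0.35, adjusted p = 0.592 from limma).

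**Figure D2:**
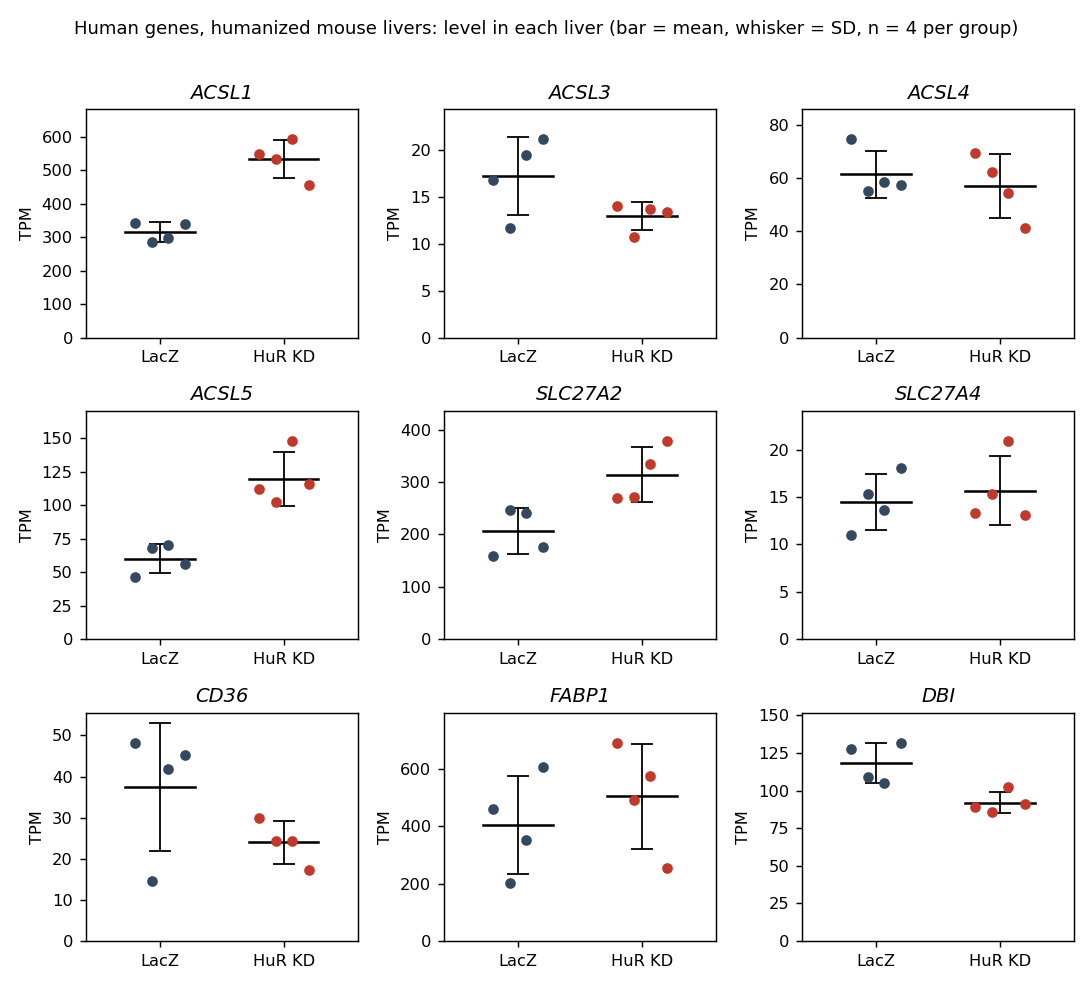
TPM (y axis, from 0) of the 9 human genes in each humanized liver, with LacZ livers on the left and HuR knockdown livers on the right of each panel; points are livers in the order of their replicate number, the bar is the mean and the whisker the SD (n = 4). The groups do not overlap for ACSL1, ACSL5, SLC27A2 and DBI, and a single control at 14.6 TPM lies below all other livers for CD36.

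The size of the human CD36 difference depended on a single control liver, while its sign did not. The log2 fold change ran from −0.91 to −0.35 over the livers left out. In humanized livers CD36 was at 30.0, 24.4, 24.3 and 17.3 TPM with knockdown and at 48.3, 14.6, 42.0 and 45.2 TPM in controls. LacZ replicate 2, one of the livers that stood apart, lay below all knockdown livers, and the other 3 controls lay above all of them. With all 8 livers the log2 fold change was −0.52 (standard error 0.36, 95% interval −1.32 to 0.29, adjusted p = 0.643 from limma). Without that control it was −0.91 (adjusted p = 0.0595), and without both livers that stood apart −0.77 (adjusted p = 0.0567).

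Mouse Cd36 ranged from 62.7 to 156 TPM (median 122) with knockdown and from 101 to 227 TPM (median 146) in controls, a log2 fold change of −0.40 (95% interval −0.95 to 0.15, adjusted p = 0.484 from limma). CD36 is also known in macrophages, endothelium and fat cells, so their markers were set beside it. Markers of Kupffer cells and macrophages were called lower in 5 of 8 cases in WT mouse livers. Of all mouse genes, 6.94% were called lower and 9.09% higher. These macrophage markers summed to 405 to 691 TPM with knockdown against 578 to 792 TPM in controls. The macrophage marker Cd68 ranged from 18.6 to 27.0 TPM against 23.9 to 37.8, and Vsig4 from 11.8 to 26.4 against 17.6 to 25.4. Of 7 endothelial markers 1 was called higher and 0 lower (161 to 198 against 157 to 195 TPM in sum), with Stab2 at 37.6 to 50.0 against 34.0 to 41.7 TPM and Pecam1 at 9.13 to 12.2 against 8.98 to 11.3 TPM. Adipocyte markers summed to 4.41 to 19.9 against 4.53 to 11.8 TPM, with Fabp4 at 2.13 to 3.60 against 2.87 to 4.53 TPM, Adipoq below 1 TPM and Lep at 0 in every liver. The part of these cells in the mouse Cd36 values was not tested.

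In the human table VSIG4, FABP4 and ADIPOQ were at 0 in every liver, and CD68, STAB2 and PECAM1 were at most at 0.0834, 0.146 and 0.0698 TPM. Human macrophage markers summed to at most 0.519 TPM with knockdown and 1.24 TPM in controls, and human endothelial markers to at most 0.573 and 0.916 TPM, none of the 15 reaching the filter. The markers of hepatocytes, the labelled graft, summed to 38664 to 66606 TPM in knockdown and 41993 to 87420 TPM in control livers, and 0 of 6 were called. Of the adipocyte markers only PLIN1, which coats lipid droplets, was above 1 TPM, and it was called higher (log2 fold change 0.92). T and NK cell markers summed to at most 0.331 TPM. Human stellate cell markers summed to 1.14 to 2.54 against 3.46 to 5.23 TPM in controls, with RELN, the 1 of 6 past the filter, called lower. Cholangiocyte markers summed to 5.26 to 29.4 against 11.5 to 44.4 TPM, 2 of 4 tested being called lower. Of all human genes tested, 3.60% were called higher and 7.87% lower. The part of these cell types in the human values was not tested.

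Mouse hepatocyte markers summed to 73308 to 86017 TPM with knockdown and 67777 to 80620 TPM in controls, with 0 of 6 called. Of all mouse genes, 9.09% were called higher and 6.94% lower. Stellate cell markers (96.5 to 139 against 114 to 148 TPM, 2 of 6 called lower), cholangiocyte markers (31.9 to 44.8 against 25.5 to 48.4 TPM, 0 of 2 tested called) and T and NK cell markers (2.54 to 8.78 against 5.29 to 11.7 TPM, 0 of 3 tested called) were also present.

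ACSL3, a synthetase found on the endoplasmic reticulum and on growing lipid droplets, and ACSL4, known for its preference for arachidonic acid, were the human synthetases whose fold changes were below 0, and neither passed the threshold. ACSL3 was at 14.0, 10.8, 13.7 and 13.4 TPM with knockdown and at 16.8, 11.7, 19.5 and 21.2 TPM in controls of the humanized mice. Again LacZ replicate 2 was the lowest control, and the other 3 controls lay above all knockdown livers. The log2 fold change was −0.36 (standard error 0.19, 95% interval −0.79 to 0.07, adjusted p = 0.515 from limma), and −0.53 without that control (adjusted p = 0.148).

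Mouse Acsl3 ranged from 11.1 to 16.4 TPM (median 14.3) with knockdown and from 8.25 to 14.4 TPM (median 11.5) in controls. Its log2 fold change was 0.28 (limma standard error 0.15, adjusted p = 0.374). It passed the unadjusted threshold without HuR knockdown replicate 6 (0.34) and without LacZ replicate 1, 3 or 6. Human ACSL4 was at 69.3, 62.2, 54.4 and 41.3 TPM with knockdown and at 74.6, 55.0, 58.5 and 57.2 TPM in controls, a log2 fold change of −0.12 (95% interval −0.53 to 0.29, adjusted p = 0.855 from limma). Mouse Acsl4 ranged from 35.1 to 59.8 TPM (median 53.4) and from 33.3 to 56.4 TPM (median 43.0), a log2 fold change of 0.21 (limma standard error 0.15, adjusted p = 0.554) that passed the unadjusted threshold without HuR knockdown replicate 6 (0.31).

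FABP1 varied more between humanized livers than the other 8 genes, with an SD within groups of 0.65 on the log2 scale. It was at 692, 493, 574 and 256 TPM with knockdown and at 460, 202, 350 and 607 TPM in controls, and the lowest value of each group was that of the liver that stood apart. The log2 fold change was 0.33 (standard error 0.38, 95% interval −0.53 to 1.20, adjusted p = 0.799 from limma), and no setting brought it past the threshold. It was 0.04 without LacZ replicate 2, 0.15 without HuR knockdown replicate 1, 0.63 without HuR knockdown replicate 4, 0.57 without LacZ replicate 4 and 0.33 without both livers that stood apart. Mouse Fabp1 ranged from 7110 to 11023 TPM (median 10012) with knockdown and from 7976 to 12872 TPM (median 9582) in controls, a log2 fold change of −0.04 (limma standard error 0.15, adjusted p = 0.935).

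SLC27A4, the transport protein known for a role in the gut and skin, was at 13.3, 15.3, 20.9 and 13.1 TPM with knockdown and at 11.0, 15.4, 13.6 and 18.0 TPM in controls of the humanized mice (log2 fold change 0.10, 95% interval −0.34 to 0.54, adjusted p = 0.896 from limma). Mouse Slc27a4 ranged from 23.9 to 35.8 TPM (median 29.5) and from 24.7 to 31.7 TPM (median 28.7), a log2 fold change of 0.02 (adjusted p = 0.931 from limma). The groups of this gene overlapped in both species.

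**Figure D3:**
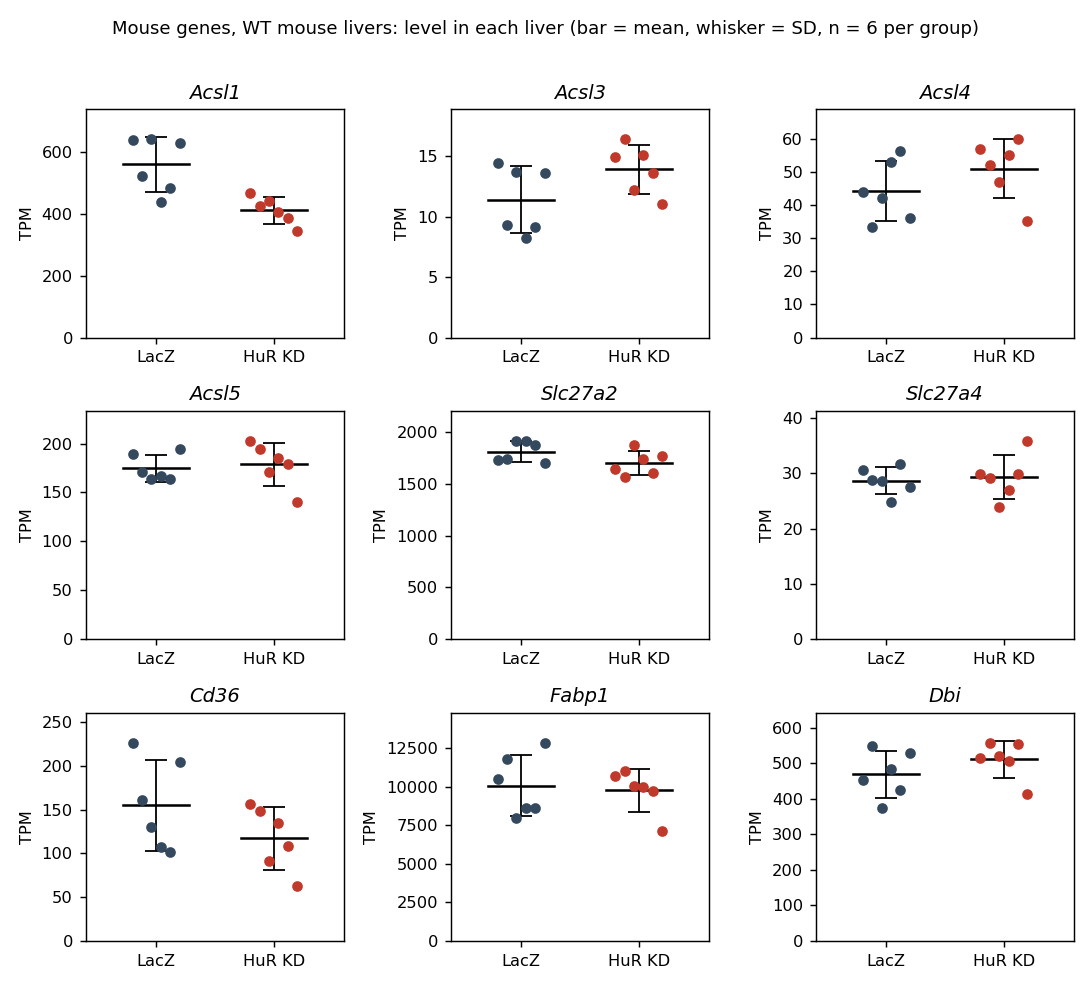
TPM (y axis, from 0) of the 9 mouse genes in each WT mouse liver, with LacZ livers on the left and HuR knockdown livers on the right of each panel; points are livers in the order of their replicate number, the bar is the mean and the whisker the SD (n = 6). The groups overlap for all 9 genes, and the last knockdown liver, replicate 6, is the lowest of its group for 7 of them.

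Some livers lay at the edge of their group for several genes at once. HuR knockdown replicate 6 of the WT mice was the lowest knockdown liver for 7 of the 9 genes, Slc27a2 and Slc27a4 being the exceptions, and the highest for Slc27a4. In the humanized mice, HuR knockdown replicate 4 and LacZ replicate 2 were each the lowest of their group for 5 of the 9 genes. ACSL1, ACSL4, CD36 and FABP1 were the 4 genes that both had in common. The count of human genes called was 5 of 8 in place of 3 without LacZ replicate 2, ACSL3 and CD36 being added. Of all human genes, 4.1% were then called higher and 11.2% lower. The count was also 5 without both livers, where 4.48% of all human genes were called higher and 11.2% lower.

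Whether the response differed between the 2 sets was tested in a joint limma fit of 8202 pairs of genes with the same symbol. The term was the interaction of species and knockdown, in which species cannot be told apart from host, shRNA and read length. ACSL5 differed by 0.96 on the log2 scale, human minus mouse (standard error 0.18, 95% interval 0.58 to 1.33, adjusted p = 0.00342 from limma). SLC27A2 differed by 0.71 (standard error 0.18, 95% interval 0.34 to 1.08, adjusted p = 0.0216 from limma). The joint fit took a common variance per gene from both sets. The SD within groups of SLC27A2 was 0.28 on the log2 scale in humanized and 0.09 in WT mouse livers (ACSL5 0.25 and 0.15). These standard errors may thus be too small for the more variable human side. The SLC27A2 difference missed the threshold without LacZ replicate 1 of the humanized mice (0.60, adjusted p = 0.0524) or without LacZ replicate 4 (0.65, adjusted p = 0.0532). With the replicate number as a block it missed the threshold too (adjusted p = 0.0507 from limma). Of all pairs, 5.01% passed this threshold, and the 2 sets share no control livers.

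The other 6 pairs tested did not pass it. DBI differed by −0.48 (95% interval −0.83 to −0.14, adjusted p = 0.093 from limma), and by −0.54 (adjusted p = 0.0361) without HuR knockdown replicate 6 of the WT mice. ACSL3 differed by −0.65 (95% interval −1.14 to −0.16, adjusted p = 0.118 from limma), and by −0.81 (adjusted p = 0.022) without LacZ replicate 2 of the humanized mice. For ACSL4 the difference was −0.33 (−0.82 to 0.16, adjusted p = 0.483), for FABP1 0.37 (−0.40 to 1.14, adjusted p = 0.635) and for SLC27A4 0.08 (−0.33 to 0.48, adjusted p = 0.878). For CD36 it was −0.11 (−1.01 to 0.78, adjusted p = 0.928), an interval that holds differences of either sign. HuR mRNA itself differed by 0.24 (adjusted p = 0.477).

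The makeup of the synthetase mRNA was then described as the share of each isoform in the summed TPM of ACSL1, ACSL3, ACSL4, ACSL5 and ACSL6. In humanized livers the sum was 722 ± 75.9 TPM with knockdown and 455 ± 28.4 TPM in controls (SD, n = 4 each). ACSL1 held 73.7 ± 1.08% with knockdown and 69.3 ± 2.44% in controls, and ACSL5 held 16.6 ± 2.13% and 13.3 ± 3.12%. ACSL4 went from 13.4 ± 1.47% in controls to 7.86 ± 1.41% with knockdown, and ACSL3 from 3.78 ± 0.795% to 1.81 ± 0.263%.

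The mouse sum was 656 ± 70.7 TPM with knockdown and 791 ± 95.8 TPM in controls (SD, n = 6 each). Acsl1 held 63.0 ± 2.09% against 70.6 ± 3.19% in controls. Acsl5 held 27.2 ± 1.13% against 22.3 ± 2.03%, Acsl4 held 7.73 ± 0.975% against 5.71 ± 1.73%, and Acsl3 held 2.12 ± 0.202% against 1.43 ± 0.181%. ACSL6 was at most 0.150% in any liver. Shares add up to a whole and ACSL1, which chose the group, is most of it, so they were not tested.

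**Figure D4:**
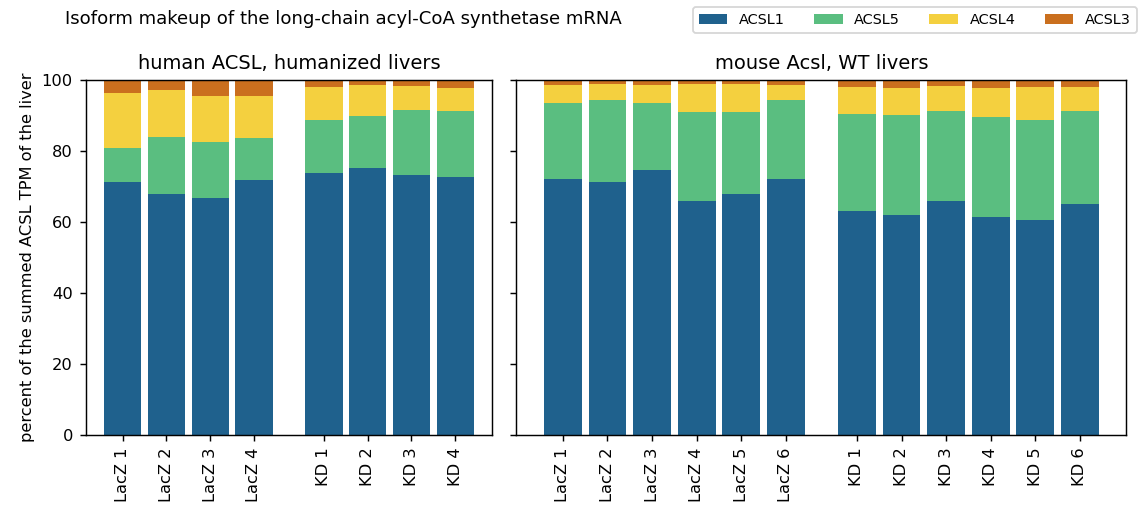
Percent of the summed ACSL TPM of each liver (y axis) held by ACSL1, ACSL5, ACSL4 and ACSL3, stacked, for human genes in humanized livers on the left and mouse genes in WT mouse livers on the right, one bar per liver. Control bars show 66.8 to 71.6% ACSL1 and knockdown bars 72.7 to 75.2% in humanized livers, while in WT mouse livers controls show 65.9 to 74.6% and knockdown livers 60.6 to 65.8%.

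The genes around this step were followed as 6 lists written by hand with earlier results of these data known. CPT1A and PLIN2 each stand in 2 of the lists, and the adipocyte markers FABP4 and CIDEA are in a list too. Among human genes, the list of PPAR-alpha and its targets had 7 of 20 genes called higher and 1 lower, where 3.60% of all human genes were called higher and 7.87% lower (6.21% and 6.88% with median-of-ratios factors). Its median log2 fold change was 0.30, against −0.05 over all genes tested. PPAR-alpha is the nuclear receptor that senses fatty acids and is known to drive the transcription of ACSL1 and FABP1. CREB3L3, a liver transcription factor of the fasting response, was at 26.9 ± 4.29 against 14.7 ± 3.01 TPM (0.84 on the log2 scale, limma adjusted p = 0.111), and VNN1, a pantetheinase, was lower (−0.53, adjusted p = 0.282). Without the 2 livers that stood apart, 7 were called higher and 2 lower, and the median was 0.17. Of all human genes, 4.48% were then called higher and 11.2% lower, with a median of −0.08. Of the mouse genes of this list, 3 of 20 were called higher and 0 lower, where 9.09% of all mouse genes were called higher and 6.94% lower (median 0.05, against 0.03 over all genes). That count ran from 1 higher to 5 higher over the livers left out, where 6.77 to 12.4% of all mouse genes were called higher. Among the called genes were Ppargc1b, a coactivator, at 0.39 (adjusted p = 0.111 from limma), and Ehhadh, a peroxisomal oxidation enzyme, at 0.41 (adjusted p = 0.3).

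Genes that pass acyl-CoA on into mitochondria and peroxisomes had 2 of 8 human genes called higher and 0 lower (median 0.20), against the same 3.60% and 7.87% of all human genes. With single livers left out, 1 to 3 were called higher, where 2.27 to 4.55% of all human genes were. The median was 0.03 without LacZ replicate 2 and 0.07 without HuR knockdown replicate 1. SLC25A20, which carries acylcarnitine across the inner mitochondrial membrane, was at 147 ± 33.6 against 82.3 ± 12.4 TPM (0.81 on the log2 scale, limma adjusted p = 0.13), and CPT2, the transferase that restores acyl-CoA inside, was called higher at 0.40 (adjusted p = 0.38). On the mouse side 0 of 10 were called higher and 1 lower (median −0.04), against 9.09% and 6.94% of all mouse genes. The gene called lower was Slc25a20, at 93.8 ± 9.21 against 111 ± 8.11 TPM (−0.24, adjusted p = 0.14 from limma). Its knockdown and control livers did not overlap in either species.

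Thioesterases, which split acyl-CoA again, had 3 of 8 human genes called higher and 0 lower (median 0.28, against 3.60% of all human genes called higher). Without LacZ replicate 2 there were 3 higher and 2 lower, where 4.1% of all human genes were called higher and 11.2% lower. Without both livers that stood apart there were 3 higher and 1 lower, where the shares were 4.48% and 11.2%. The called genes were led by ACOT7 (0.78, adjusted p = 0.14) and ACOT2 (0.55, adjusted p = 0.264). For mouse thioesterases 2 of 10 were called higher and 0 lower (median 0.06), against 9.09% and 6.94% of all mouse genes. Those called were Acot12 (0.22, adjusted p = 0.173) and Acot8 (0.19, adjusted p = 0.246). Among the other transport and binding proteins, 1 of 11 human genes was called higher and 0 lower (median 0.08, and −0.07 without the 2 livers that stood apart). This was SLC27A5, the bile acid and very long-chain acyl-CoA synthetase of the same family as SLC27A2, at 97.5 ± 9.17 against 46.3 ± 15.7 TPM (1.12, adjusted p = 0.104). Of mouse transport and binding genes 2 of 16 were called higher and 2 lower (median −0.05), against 9.09% and 6.94% of all mouse genes. Those were Slc27a1 (0.40, adjusted p = 0.159) and Got2 (0.19, adjusted p = 0.214), and Cav1, the caveolar coat protein (−0.90, adjusted p = 0.0905), and Mfsd2a (−0.30, adjusted p = 0.217).

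The other acyl-CoA synthetases, most of which act on shorter chains, had 1 of 10 human genes called higher and 0 lower (median 0.21, ACSM3 at 0.42, adjusted p = 0.398). For this list and the next, the shares over all human genes were 3.60% higher and 7.87% lower. Without the 2 livers that stood apart 0 of 11 were called higher and 1 lower, where 4.48% of all human genes were called higher and 11.2% lower. On the mouse side 0 of 8 were called higher and 1 lower (median −0.01, Acss2 at −0.21, adjusted p = 0.259). The shares over all mouse genes were 9.09% higher and 6.94% lower. Glycerolipid synthesis and lipid droplets, where acyl-CoA is stored, had 1 of 18 human genes higher and 2 lower (median −0.08). This split was 3 higher and 1 lower with median-of-ratios factors, where 6.21% of all human genes were called higher and 6.88% lower. The list median was 0.13 with protein-coding TPM. AGPAT2, which adds the acyl chain that makes phosphatidic acid, was higher (1.14, adjusted p = 0.199), and the phosphatidic acid phosphatases LPIN1 (−0.76, adjusted p = 0.343) and LPIN2 (−0.64, adjusted p = 0.363) were lower. In WT mouse livers 0 of 22 were called higher and 1 lower (median 0.08, Gpat3 at −0.42, adjusted p = 0.0986). No gene of the 6 lists passed the adjusted threshold in either species as the values were deposited, with all livers. With median-of-ratios factors and with protein-coding TPM, 2 human genes of the PPAR-alpha list and 1 of the list of mitochondrial and peroxisomal entry did, and 1 mouse gene of the latter list did with median-of-ratios factors. Quantile normalization gave 1 human gene of the PPAR-alpha list, and voom gave 1 of that list and 1 of the other transport and binding proteins. With livers left out, at most 1 gene of any list passed.

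**Figure D5:**
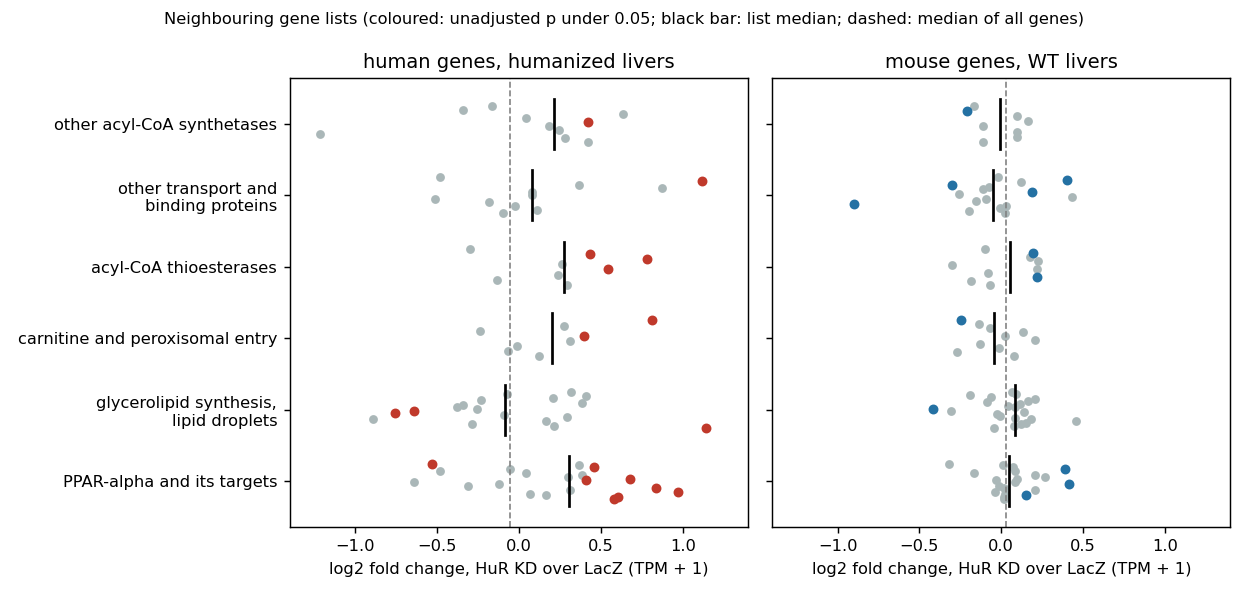
Log2 fold change, HuR knockdown over LacZ (x axis), of each gene past the filter in 6 lists (y axis), for human genes on the left and mouse genes on the right; coloured points passed the unadjusted threshold, black bars are list medians and the dashed line is the median of all genes. The human medians lie between −0.08 and 0.30 and the mouse medians between −0.05 and 0.08.

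The pairs whose values were most like those of ACSL1 and Acsl1 over the 20 livers were found by the root-mean-square difference of log2(TPM + 1), after each gene was centred within its set. RFK, which makes the flavin cofactor FMN, was nearest among the 8202 pairs, at 0.137 against a median of 0.403 over all pairs. It had a log2 fold change of 0.74 in humanized and −0.35 in WT mouse livers. SLC25A20 came next at 0.159 (0.81 and −0.24), and ATP6AP1, an accessory subunit of the vacuolar proton pump, followed at 0.170 (0.74 and −0.63). Since the pairs were picked for being like ACSL1 and Acsl1, their opposite signs follow from that choice. The likeness is a description of these livers.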

How the data were processed

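Total RNA of 20 livers was sequenced from stranded libraries. Per the labels and methods, the authors trimmed the reads, aligned them with HISAT2 (humanized livers to a joint human and mouse index), counted them with featureCounts and deposited TPM, which add up to 1000000 per library. Builds were mm10 and GRCh38 per the labels.

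The genes were matched by symbol ignoring case. TPM were compared as log2(TPM + 1) with limma 3.58.1 (R 4.3.3; lmFit, eBayes with trend) in each set apart, keeping genes that averaged 1 TPM or more, with Benjamini-Hochberg adjustment over all genes tested. A joint limma fit over 8202 pairs, with a common variance per gene for both sets, gave the interaction. HuR mRNA was compared by exact permutation. The fits were tested on simulated data. A simulated log2 shift of 0.5 passed the unadjusted threshold in 52.5% of changed genes in the humanized and 80.5% in the WT design. The adjusted threshold was passed by 0% and 41.5% of them. At a shift of 1.5 the unadjusted shares were 93% and 100%, and the adjusted shares 70.5% and 94%. Mice were separate animals per the labels, and p-values measure the spread between these livers.

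Reads were recovered, with Python 3.11.15, as whole numbers up to a common factor for 18701 of 18702 human and 25110 of 25110 mouse genes with values in at least 4 libraries. The mouse lengths this gave were within 2% of GENCODE M21 for 24635 of 24645 genes. The 9 genes had 67 to 31751 recovered reads per humanized and 24 to 125296 per WT liver.

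Members, lists and tests were chosen with earlier results of these data known. Named in the lists were genes past the adjusted threshold or, where there was none, up to 2 called genes with the smallest p in each direction; 1 gene that this rule names is not reported here. Likeness took the 3 nearest pairs. Alternatives were a pseudocount of 0.1, a filter at 5 TPM or none, quantile normalization, median-of-ratios factors, protein-coding TPM, no trend, replicate number as a block, adjusted p and each liver left out. Voom on recovered reads and leaving out 2 humanized livers together were chosen after seeing the data.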

Additional observations from a re-analysis of the deposited data

Results flagged for a closer look

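Of 36 groups of values (9 genes, 2 conditions, 2 sets), 2 held a liver far from the rest of its group, and chance alone flags about 1 in 20 groups of this kind. Both were HuR knockdown replicate 6 of the WT mice, with Fabp1 at 7110 TPM, where the other 5 lay between 9696 and 11023 TPM, and Dbi at 415 TPM, where they lay between 508 and 559 TPM.

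The response to HuR knockdown differed between humanized and WT mouse livers for ACSL5, by 0.96 on the log2 scale (adjusted p = 0.00342 from limma). For SLC27A2 it differed by 0.71 (adjusted p = 0.0216 from limma). Host, shRNA and read length differ between these livers too and cannot be told apart from the species. The SLC27A2 difference missed the threshold without LacZ replicate 1 (adjusted p = 0.0524 from limma) or LacZ replicate 4 (adjusted p = 0.0532) of the humanized mice. It also missed the threshold with the replicate number as a block (adjusted p = 0.0507 from limma). Human ACSL5 and SLC27A2 were above all controls in 4 of 4 humanized livers. Human ACSL1 lay above every control in all 4 humanized knockdown livers, while mouse Acsl1 in 4 of 6 WT knockdown livers lay below every control, a difference of 1.18 on the log2 scale that was not tested, because the gene was picked for it.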

How the results depend on the processing

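Of 673 values recomputed over 31 settings, 625 were scored as unchanged, 17 changed sign, and the remaining 31 moved or crossed the threshold. Fold changes were scored by sign and unadjusted p, and interactions by sign and adjusted p. ACSL1, which had no test, was scored by sign, and its fold changes also by a move below the SD within groups. Counts of genes called were scored as unchanged when close, so that 2 human genes in place of 3 counted as unchanged. Human ACSL1 stayed between 0.69 and 0.90 on the log2 scale and mouse Acsl1 between −0.50 and −0.38. Human ACSL5 and SLC27A2 passed the unadjusted threshold under every setting, with adjusted p of 0.0271 to 0.219 and 0.0981 to 0.574.

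The 3 human genes called became 5 without LacZ replicate 2 alone or together with HuR knockdown replicate 4, between 2 and 5 over the livers left out, and 0 at the adjusted threshold. Of all human genes, 4.1% were called higher and 11.2% lower without LacZ replicate 2, and 4.48% and 11.2% without both livers. With all livers these shares were 3.60% and 7.87%. The 0 mouse genes called became 1 with quantile normalization (Slc27a2, −0.18) and 1 with voom (Acsl3, 0.30), and between 0 and 2 over the livers left out. Of all mouse genes, 8.76% were called higher and 8.57% lower with quantile normalization, and 12.3% and 7.74% with voom. The cause was not tested.

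The sign turned only in values close to 0 that passed no threshold. With quantile normalization Acsl5 became −0.000183 and Fabp1 0.0284. The other 15 sign changes came with 1 liver left out. Over the livers left out, human SLC27A4 ranged from −0.0397 to 0.205 and human ACSL4 from −0.225 to 0.0196, while mouse Acsl5 ranged from −0.0136 to 0.093, Slc27a4 from −0.036 to 0.0774 and Fabp1 from −0.0978 to 0.0534. The interactions ranged from −0.0626 to 0.183 for SLC27A4 and from −0.506 to 0.0487 for CD36.

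The deviations of same-numbered livers had correlations of −0.249 to 0.206, so the numbers were not taken to pair the samples. So few livers cannot exclude a pairing. With the replicate number as a block, genes past the adjusted threshold went from 27 to 0 in humanized and from 134 to 17 in WT mouse livers, the interaction of SLC27A2 was 0.71 and missed the threshold (adjusted p = 0.0507), and the counts of 3 and 0 genes called were unchanged. ELAVL1 was below a mean TPM of 5 and gave no value there. HuR mRNA, SLC27A4 and ACSL3 had the fewest recovered reads, down to 34, 67 and 158 in a humanized liver. In WT mouse livers they went down to 57, 75 and 24 reads. The part of depth in their spread was not tested.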
